A study of Mus musculus with 2 samples.

Results

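The genes described here are 10 named members of the unfolded protein response of the endoplasmic reticulum (ER): Herpud1, Xbp1, Atf6, Ern1, Sel1l, Syvn1, Creld2, Manf, Sdf2l1 and Edem1. They were taken by gene symbol from the 24542 symbols of a table of the mouse heart, all 10 were found there, and all 10 were among the 14466 genes abundant enough to be tested. The tissue came from male C57BL/6 mice 7 days after the proximal left anterior descending (LAD) coronary artery was ligated permanently. By the labels it was left ventricle remote from the infarct, with scar and border cut off. Controls were littermates, the other genotype was a knockout of NRK-2, the nicotinamide riboside kinase encoded by Nmrk2, and the animals of both genotypes had been ligated. Unligated hearts were not analysed here, and neither the age of the mice nor the design of the knockout allele is stated in the labels. For each genotype the labels name 1 sample, whereas the table holds 3 numbered libraries, called control 1 to 3 and KO 1 to 3. Whether they came from separate mice is not said, and p-values rest on the spread among these libraries alone, which can be technical.

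Proteins that enter the ER are folded there by chaperones and disulfide isomerases, and misfolded ones are drawn back into the cytosol and degraded (ER-associated degradation, ERAD). The 3 sensors of the ER membrane respond to a surplus of unfolded protein. IRE1 (gene Ern1) cuts a short segment out of the Xbp1 messenger RNA, so that a potent transcription factor is made. ATF6 is moved to the Golgi and cleaved there into a transcription factor, and PERK (gene Eif2ak3) slows translation and favours ATF4. XBP1 and ATF6 act on the promoters of chaperone and ERAD genes. The response is known from cardiomyocytes under load or ischemia, and it is prominent in cells that secrete much protein, such as plasma cells and fibroblasts that lay down matrix.

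The sequences below show what IRE1 does to Xbp1, because the counts of these libraries assign reads to each of the Xbp1 forms. The table lists 2 Xbp1 transcripts, of 2247 and 2221 bases, which differ by 26 bases. The coding sequence of Xbp1 (GENCODE M21 transcript, GRCm38) was searched for a segment of that length with C, any base and G on both sides of each end, whose removal lengthens the reading frame. A single segment was found, bases 479 to 504 of the coding sequence, and capitals mark it. Its removal takes the frame from 267 to 371 codons.
Xbp1 unspliced: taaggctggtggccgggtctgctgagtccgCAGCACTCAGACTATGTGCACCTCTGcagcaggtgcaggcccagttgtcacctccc
Xbp1 spliced: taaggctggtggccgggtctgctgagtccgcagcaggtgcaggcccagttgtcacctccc

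Promoters are shown for the 3 members whose windows held the full letters of an ER stress response element. Windows run from 250 bases before to 50 after the RefSeq gene start (GRCm38.p6), and 8 of the 10 members had one, Atf6 and Manf being the others. The 3 motifs searched, on both strands, were the ER stress response element ERSE (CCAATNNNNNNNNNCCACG), which is read by NF-Y together with ATF6 or XBP1, its second form ERSE-II (ATTGGNCCACG) and the unfolded protein response element UPRE (TGACGTGG). ERSE was in 2 of the 8 windows and in 0.119% of 32851 promoter windows of the same length. ERSE-II was in 1 of the 8 and in 0.0365% of all windows, and UPRE in 0 of the 8 and in 0.676% of all. Capitals mark the fixed letters of the match, which on the minus strand reads as the reverse complement. The Herpud1 window (chr8:94386179-94386478, plus strand) held ERSE-II 52 to 42 bases before the start used for the window. The Herpud1 transcript with counts begins further on, at 94386500, past the end of this window. The Syvn1 window (chr19:6046326-6046625, plus strand) held ERSE 44 to 26 bases before it. The Creld2 window (chr15:88819396-88819695, plus strand) held ERSE on its minus strand, 126 to 108 bases before the start.
Herpud1 promoter: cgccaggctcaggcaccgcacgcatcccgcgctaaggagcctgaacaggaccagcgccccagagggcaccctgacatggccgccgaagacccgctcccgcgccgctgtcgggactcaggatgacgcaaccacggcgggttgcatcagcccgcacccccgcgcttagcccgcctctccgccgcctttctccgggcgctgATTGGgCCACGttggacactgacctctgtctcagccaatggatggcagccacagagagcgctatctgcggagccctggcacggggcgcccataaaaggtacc
Syvn1 promoter: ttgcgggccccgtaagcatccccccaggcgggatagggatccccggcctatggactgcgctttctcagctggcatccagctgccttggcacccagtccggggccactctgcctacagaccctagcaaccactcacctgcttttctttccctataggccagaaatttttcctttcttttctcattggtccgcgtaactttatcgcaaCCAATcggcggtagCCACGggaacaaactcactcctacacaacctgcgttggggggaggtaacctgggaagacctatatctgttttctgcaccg
Creld2 promoter: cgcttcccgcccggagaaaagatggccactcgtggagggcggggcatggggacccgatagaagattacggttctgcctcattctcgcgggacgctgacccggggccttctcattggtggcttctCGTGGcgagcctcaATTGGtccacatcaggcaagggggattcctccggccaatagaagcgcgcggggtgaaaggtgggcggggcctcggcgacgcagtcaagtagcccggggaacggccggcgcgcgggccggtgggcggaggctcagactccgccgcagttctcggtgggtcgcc
Of 5 other pathway genes whose windows were searched, 3 (Hspa5, Hsp90b1 and Derl3) held ERSE, that of Hsp90b1 at 2 places, and Dnajb9 and Pdia4 held 0 of the 3 motifs. A match in letters describes the sequence and does not show that a factor was bound in these hearts.

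Libraries held from 22377348 to 33086384 counted reads. Levels are given as CPM (reads per 1000000 reads of the library, whose total is adjusted by a TMM factor), fold changes are knockout over control, and "rose" or "fell" means an adjusted p under 0.05 in edgeR's quasi-likelihood test over all 14466 genes. The library labelled KO 1 held 808 Nmrk2 reads, more than any control library (118 to 308), against its label, while KO 2 held 9 and KO 3 held 0, which allows up to 3. "KO" therefore names the label of these libraries, and each direction against control includes KO 1. Control 3 stood apart from the other controls. The summed level of 12 B and plasma cell markers (12 of 13 listed were found, and 0 were at 0 in all libraries) was 907 CPM in control 3, 323 CPM in KO 2 and from 37.9 to 95.4 CPM in the other 4 libraries. Cardiomyocyte markers (10 of 10 found) summed to 69803 CPM in control 3, against 109786 and 112950 CPM in the other controls and 42222 to 66956 CPM in the libraries labelled KO. Ttn and Myh6 were the largest parts of this sum in every library. Of these 10 cardiomyocyte markers, 0 rose and 0 fell. The groups of Actc1, Ryr2 and Ttn overlapped, and the other cardiomyocyte markers had every KO library below every control. Fibroblast markers (10 of 10 found) summed to between 6849 and 18362 CPM in control and between 30013 and 40805 CPM in the libraries labelled KO. Col1a1, Col1a2, Col3a1 and Postn made up most of this sum. Of the 10 markers, 2 rose and 0 fell. The groups of Dcn, Pdgfra and Dpt overlapped (log2 fold changes 0.12, 0.25 and -0.08), and the other fibroblast markers had every KO library above every control. Of the atrial markers, Myl7 was at 205, 162 and 0 CPM in controls 1, 2 and 3. In KO 1, 2 and 3 it was at 127, 1.15 and 0.219 CPM. Sln and Myl4 were also lowest in control 3, KO 2 and KO 3, while Nppa and Dkk3 were higher in every KO library than in any control. Whether the libraries differ in atrial tissue was not tested. In bulk tissue fewer cells of a type and less RNA per cell cannot be told apart.

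Of the 10 members, 1 fell and 0 rose in the libraries labelled KO. Among all genes tested 1.09% fell, 2.61% rose and 3.70% did either. The faller was Herpud1, and the other 9 members had overlapping groups. Herpud1 was also the only member whose 3 KO libraries were all below all 3 controls, a pattern held by 14.5% of all genes tested. In 0 of 10 members were all KO libraries above all controls, against 16.4% of all genes. At an unadjusted p under 0.05 there was again 1 member of 10, against 25.9% of all genes. The members' median log2 fold change was -0.09 and that of all genes tested was 0.01. Without control 3 there were 3 members of 10 past the test, Herpud1, Atf6 and Edem1, against 24.6% of all genes in that fit, so the members' share lay near the background.

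**Figure D1:**
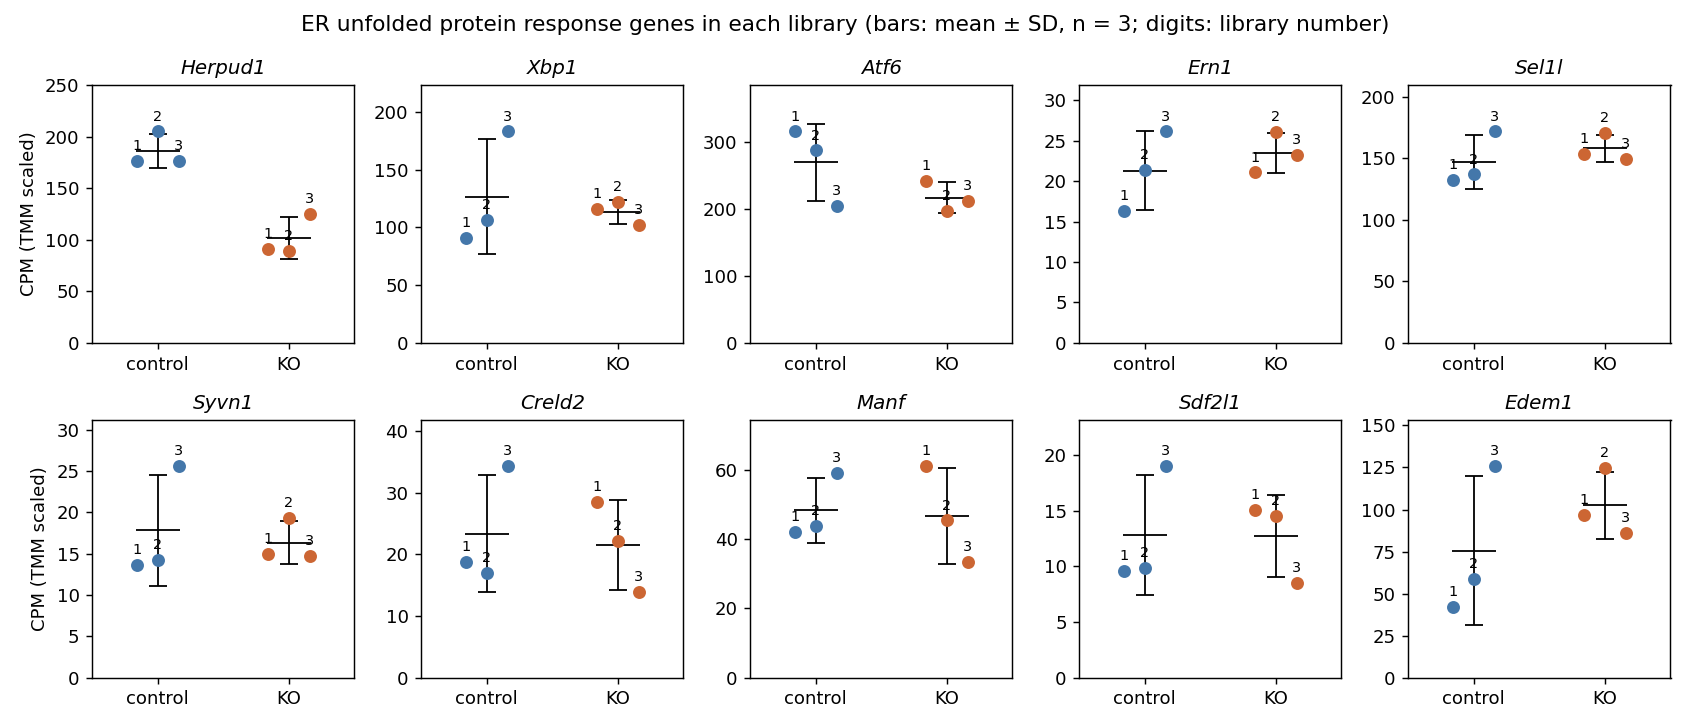
CPM of each member in each library (points, blue for control and orange for KO, numbered by library) with mean and SD over 3 libraries. Herpud1 is the 1 gene of the 10 with separate groups, and control 3 is the highest library for 7 of the 10 genes.

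Herpud1 (gene ID 64209, chromosome 8, 94386500 to 94395358, mm10) encodes a ubiquitin-like protein of the ER membrane that helps assemble the ERAD machinery. Its level was 177, 205 and 177 CPM in controls 1, 2 and 3, and 91.0, 89.0 and 125 CPM in KO 1, 2 and 3. The lowest control library lay above the highest KO library, and control 3, the highest library for most other members, was level with control 1. The means were 186 ± 16.5 and 102 ± 20.3 CPM (SD, n = 3 libraries each), a log2 fold change of -0.87 (SE 0.17, 95% interval -1.27 to -0.47, adjusted p = 0.0442 by edgeR), or 1.83-fold lower. Without control 3 the log2 fold change was -0.91 (adjusted p = 0.0206 by edgeR). The call was lost without KO 1 (log2 fold change -0.80, adjusted p = 0.150) and without control 1, control 2, KO 2 or KO 3 (adjusted p from 0.0691 to 0.181 by edgeR), and the estimate was below 0 in each of these fits. The summed level of cardiomyocyte markers was also lower in the libraries labelled KO, and its part in the Herpud1 difference was not tested. That sum was 112950, 109786 and 69803 CPM in controls 1, 2 and 3. In KO 1, 2 and 3 it was 63394, 42222 and 66956 CPM.

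Of the sensors, Atf6 (gene ID 226641, chromosome 1), the membrane-bound transcription factor, was at 316, 287 and 205 CPM in control and at 242, 197 and 212 CPM in KO. Control 3 was the low control and lay among the KO libraries, so the groups overlapped. The log2 fold change was -0.31 (95% interval -0.76 to 0.14, adjusted p = 0.340 by edgeR), and without control 3 it was -0.47 and passed (adjusted p = 0.0482 by edgeR). Ern1 (gene ID 78943, chromosome 11), which encodes IRE1, was at 16.3, 21.3 and 26.1 CPM in control and at 21.1, 26.0 and 23.2 CPM in KO. Its log2 fold change was 0.14 (95% interval -0.32 to 0.60, adjusted p = 0.688 by edgeR), with control 1 the lowest and control 3 the highest library.

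Xbp1 (gene ID 22433, chromosome 11), whose messenger RNA is the target of IRE1, was at 90.8, 106 and 183 CPM in control and at 116, 122 and 102 CPM in KO. Control 3 was the highest library and control 1 the lowest, and the KO libraries lay between them. The means of 127 ± 49.5 and 113 ± 10.3 CPM (SD, n = 3 libraries each) differed by less than the spread between control libraries (log2 fold change -0.16, 95% interval -0.79 to 0.47, adjusted p = 0.740 by edgeR). The estimate changed sign without control 3, to 0.20 (adjusted p = 0.293 by edgeR).

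The share of Xbp1 reads given to the shorter transcript, which lacks 26 bases as the spliced form does, varied within each genotype. It was 13.3% in control 1 (246 of 1851 reads, 95% Wilson interval 11.8 to 14.9%), 4.48% in control 2 (3.69 to 5.42%) and 4.76% in control 3 (4.18 to 5.42%). In the libraries labelled KO it was 6.55% in KO 1 (5.76 to 7.43%), 8.36% in KO 2 (7.58 to 9.22%) and 3.90% in KO 3 (3.24 to 4.68%). The intervals treat every Xbp1 read as telling the 2 forms apart. Only reads that reach the 26 bases, or the junction left by their removal, can do so. The intervals are therefore narrower than the real counting error, and they leave out variation between libraries. Control 1, with the lowest Xbp1 level, had the highest share, and control 3, with the highest Xbp1 level, had a share like that of control 2. The means were 7.51 ± 5.01% and 6.27 ± 2.25% (SD, n = 3 libraries each), and the exact permutation test gave p = 0.8, where 3 libraries against 3 cannot go below 0.10 (two-sided). The labels do not say how reads shared by both forms were divided, and these shares may not equal the spliced fraction of the RNA.

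**Figure D2:**
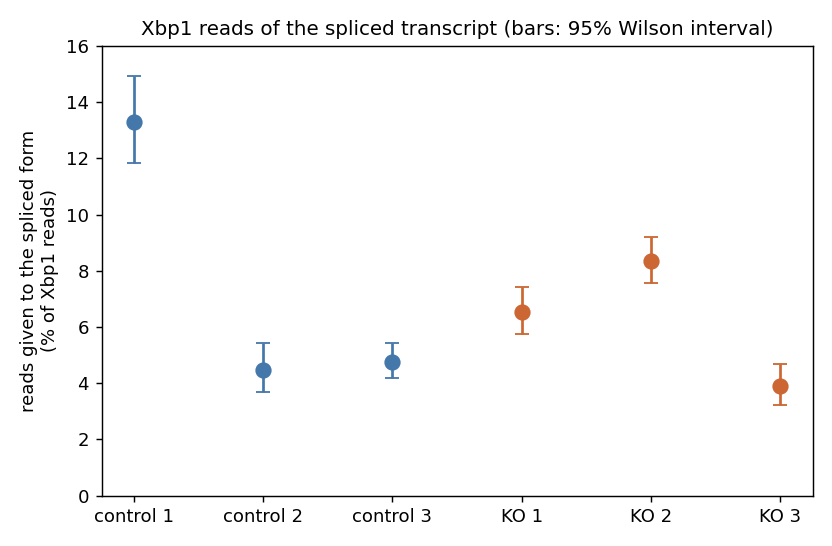
Percentage of Xbp1 reads assigned to the shorter, spliced transcript in each library. The 95% Wilson intervals treat every read as telling the forms apart and are therefore too narrow. Control 1 stands at 13.3% and the other 5 libraries between 3.90% and 8.36%, with no separation of control (blue) from KO (orange).

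Besides Herpud1, 3 members act in degradation. Edem1 (gene ID 192193, chromosome 6) encodes a lectin-like protein that hands misfolded glycoproteins to the ERAD machinery. It had the widest range of the 10 members, at 41.8, 58.7 and 126 CPM in control and 96.7, 125 and 86.2 CPM in KO, 3.01-fold from lowest to highest. Control 1 and control 2 lay below every KO library and control 3 above every one. With all libraries the log2 fold change was 0.44 (95% interval -0.50 to 1.38, adjusted p = 0.519 by edgeR). Without control 3 it was 1.03 (SE 0.22) and passed (adjusted p = 0.0230 by edgeR), the 2 remaining controls having a mean of 50.3 ± 11.9 CPM (SD).

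Sel1l (gene ID 20338, chromosome 12) and Syvn1 (gene ID 74126, chromosome 19) encode the scaffold and the ubiquitin ligase (HRD1) of the main ERAD complex. Sel1l had the narrowest range, at 132, 137 and 172 CPM in control and 154, 171 and 149 CPM in KO, 1.30-fold from lowest to highest. Its log2 fold change was 0.10 (95% interval -0.23 to 0.44, adjusted p = 0.683 by edgeR). Syvn1 was at 13.6, 14.3 and 25.6 CPM in control and at 14.99, 19.3 and 14.8 CPM in KO (log2 fold change -0.12, 95% interval -0.78 to 0.53, adjusted p = 0.810 by edgeR). For both genes control 3 was highest and control 1 lowest, and without control 3 the estimate for Syvn1 changed sign, to 0.23.

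Both genes have 2 transcripts in the table. Of Sel1l reads, 5.38, 18.1 and 12.2% in control and 23.1, 12.6 and 22.1% in KO went to the shorter one, shares that overlap between genotypes (exact permutation test, two-sided, p = 0.2). The shorter Syvn1 transcript took 1.80, 20.9 and 15.2% of reads in control and 0, 5.50 and 20.05% in KO. In KO 1 that is 0 of 434 reads, which would allow up to 0.691% if every read told the 2 forms apart. Reads from sequence common to both forms cannot do so, and the real limit is therefore higher. How such reads were divided is not stated. Control 1 had 5 reads of the shorter Syvn1 transcript and the other 4 libraries from 38 to 96. The exact permutation test over all 6 shares gave p = 0.7 (two-sided).

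The last 3 members, Sdf2l1, Creld2 and Manf, encode soluble ER proteins that aid folding and are induced by ER stress in many cells. Sdf2l1 (gene ID 64136, chromosome 16), a partner of ER chaperone complexes, was at 9.57, 9.83 and 19.0 CPM in control and at 15.1, 14.5 and 8.51 CPM in KO. Creld2 (gene ID 76737, chromosome 15), a disulfide isomerase-like protein, was at 18.7, 17.0 and 34.3 CPM in control and at 28.5, 22.2 and 13.8 CPM in KO. Manf (gene ID 74840, chromosome 9), which binds the chaperone BiP and can be secreted, was at 42.0, 43.7 and 59.2 CPM in control and at 61.1, 45.4 and 33.3 CPM in KO. All 3 genes were lowest in KO 3, and control 3 and KO 1 were the highest libraries of their groups.

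The genotype differences of these 3 genes were near 0 with wide intervals, and with library totals in place of TMM those of Sdf2l1 and Manf were 0.056 and 0.030. The log2 fold change was -0.01 for Sdf2l1 (95% interval -0.83 to 0.81), -0.12 for Creld2 (-0.95 to 0.71) and -0.05 for Manf (-0.63 to 0.53), with adjusted p = 0.989, 0.862 and 0.919 by edgeR. Every one of the 3 estimates was above 0 without control 3 (0.39, 0.27 and 0.12) and without KO 3 (0.20, 0.11 and 0.13), and below 0 without KO 1 (-0.15, -0.37 and -0.30). None of these passed (lowest adjusted p = 0.331 without control 3, by edgeR).

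**Figure D3:**
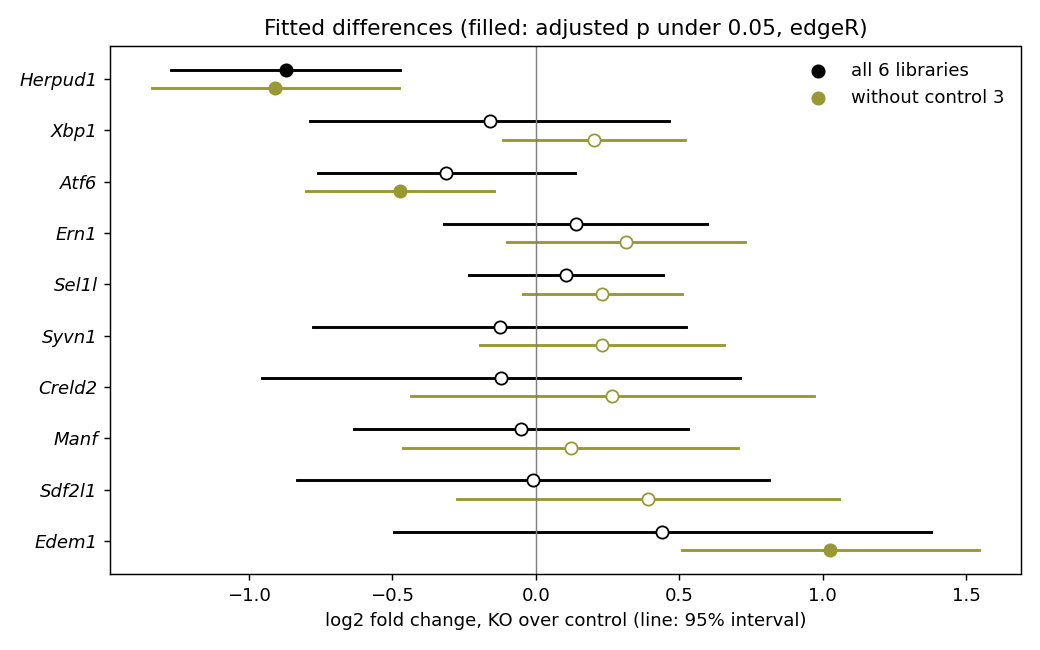
Fitted log2 fold change (KO over control) of each member with its 95% interval, with all 6 libraries (black) and without control 3 (olive), filled where adjusted p was under 0.05. Herpud1 is filled in both fits, and Atf6 and Edem1 are filled when control 3 is left out.

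Control 3 was the highest library for 7 of the 10 members, Xbp1, Ern1, Sel1l, Syvn1, Creld2, Sdf2l1 and Edem1, whereas it was the highest for 15.9% of all genes tested. Control 1 was the lowest for 5 of the 10, against 25.5% of all genes. The median level of the members, on the log2(CPM + 1) scale relative to each gene's mean over the libraries, was 0.48 in control 3, -0.23 in control 1 and -0.14 in control 2. It was 0.02, 0.12 and -0.17 in KO 1, 2 and 3, inside the range of the controls. Of 12 B and plasma cell markers, 10 were highest in control 3, and 9 of these were next highest in KO 2, among them Jchain at 549 and 137 CPM (5.10 to 10.01 CPM in the other libraries) and Ms4a1 at 87.5 and 17.0 CPM (0.578 to 1.79 CPM in the others). The other 2, Sdc1 and Prdm1, were highest in KO 2. Adipocyte markers (6 of 6 found) summed to 918 CPM in control 3, 440 CPM in KO 2 and from 2.30 to 237 CPM in the others. T and NK cell markers (8 of 8 found) summed to 23.7 CPM in control 3, 17.6 CPM in KO 2 and from 3.48 to 12.1 CPM in the others. Macrophage markers (9 of 10 found) summed to 2394 CPM in control 3 against 832 and 1165 CPM in the other controls, and to 2892 CPM in KO 2, 2139 CPM in KO 1 and 1881 CPM in KO 3. Their part in the levels of the members was not tested. Edem1 and Ern1 were about as high in KO 2 as in control 3 (125 against 126 CPM and 26.0 against 26.1 CPM), whereas Xbp1 was not (122 against 183 CPM).

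**Figure D4:**
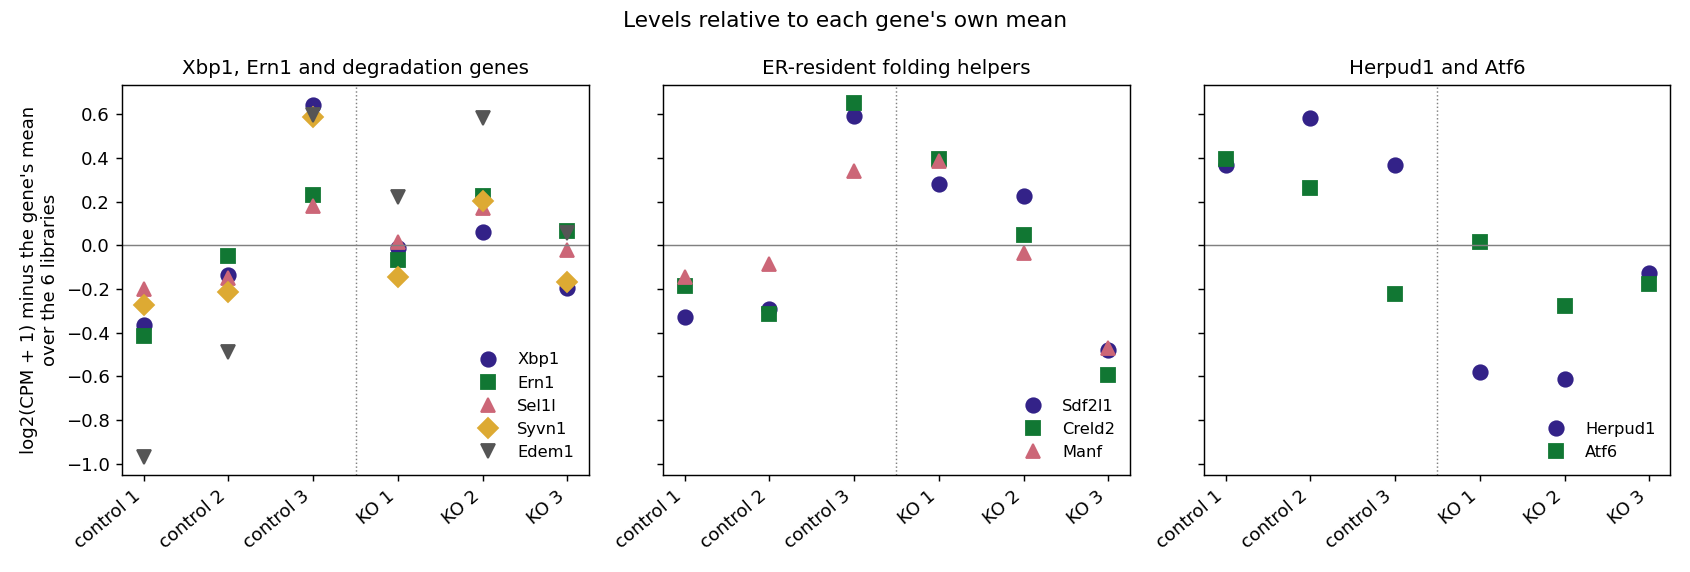
Level of each member in each library, as log2(CPM + 1) minus that gene's mean over the 6 libraries, in 3 panels. The first holds Xbp1, Ern1 and the degradation genes Sel1l, Syvn1 and Edem1. The next holds Sdf2l1, Creld2 and Manf, and the last holds Herpud1 and Atf6. Xbp1, Syvn1, Edem1, Sdf2l1 and Creld2 lie near 0.6 in control 3, and Herpud1 lies above 0 in every control and below 0 in every KO library.

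The members did not follow a single pattern over the libraries. Over the 6 libraries, Pearson's r was 0.95 between Xbp1 and Syvn1, 0.96 between Creld2 and Sdf2l1, 0.95 between Creld2 and Manf and 0.97 between Sel1l and Edem1. Atf6 ran the other way from several members, with r of -0.95 against Edem1 and -0.92 against Ern1 and Sel1l. Its r was -0.70 against Syvn1, -0.63 against Xbp1, -0.53 against Sdf2l1, -0.32 against Creld2, -0.13 against Manf and 0.56 against Herpud1. Herpud1 had r of 0.02 against Xbp1. These values describe 6 points that share libraries, scaling and genotype. The genes most like the members' mean profile, among 9566 others with a mean of at least 10 CPM, were Bcar3 (r = 0.996), C2 (0.989), Wt1 (0.982), Rdh10 (0.981) and Casp8ap2 (0.978). All 5 were highest in control 3, which follows from the choice, since the members' mean profile was highest there. C2, a complement component, was at 68.2 CPM in control 3 and from 8.59 to 26.8 CPM in the other libraries.

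Per length of transcript, Herpud1 had the highest mean of the members, at 49.4 to 102 FPKM over the 6 libraries (reads per kilobase of transcript and per 1000000 reads of the library, without the TMM factor). It was followed by Xbp1 (36.9 to 88.1), Atf6 (28.6 to 38.5), Sel1l (19.1 to 29.5), Manf (15.3 to 29.0), Creld2 (10.3 to 27.1), Edem1 (6.51 to 23.2), Sdf2l1 (7.80 to 18.5), Ern1 (3.74 to 7.09) and Syvn1 (3.59 to 8.11 FPKM). Xbp1 was above Herpud1 in KO 1 (52.5 against 49.4 FPKM) and KO 2 (58.8 against 51.4 FPKM), and below it in the other 4 libraries. Neighbours in this order of means overlapped, except Sdf2l1 and Ern1, whose ranges did not. In control Herpud1 averaged 95.9 ± 8.73 FPKM and Xbp1 56.0 ± 27.9 FPKM, and in KO 56.2 ± 10.2 and 52.5 ± 6.30 FPKM (SD, n = 3 libraries each).

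The other genes of the pathway were read from lists of related function. Among 15 tested sensors, proteases and related factors (16 listed), 1 rose and 0 fell (median log2 fold change 0.37), against 2.61% and 1.09% of all genes tested. The riser was Creb3l2, an ER-bound transcription factor related to ATF6 that serves secretory capacity. Its level was 34.4, 29.9 and 29.5 CPM in control against 67.1, 74.1 and 66.7 CPM in KO, with every KO library above every control (log2 fold change 1.15 with SE 0.12, adjusted p = 0.0114 by edgeR). The call was lost without control 2, KO 2 or KO 3 (adjusted p from 0.0525 to 0.0679 by edgeR). Eif2ak3, the PERK gene, was at 28.0 ± 7.87 against 37.4 ± 2.93 CPM (log2 fold change 0.42, adjusted p = 0.254 by edgeR), and without control 3 it passed, at 0.66 (adjusted p = 0.0246 by edgeR). Mbtps1, the protease that cleaves ATF6, and Atf6b, the paralog of Atf6, had every KO library above every control but missed the threshold (log2 fold changes 0.27 and 0.37, adjusted p = 0.173 and 0.209 by edgeR). This pattern was held by 6 of the 15 genes, Creb3l2 among them, and by 16.4% of all genes tested. Ern2, the paralog of Ern1, had 0 reads in all 6 libraries.

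Among 27 ER chaperones and folding enzymes 0 passed by edgeR (median log2 fold change 0.09), with 10 of them at an unadjusted p under 0.05 (25.9% of all genes) and 5 past DESeq2 (15.5% of the 14940 genes to which it gave an adjusted p). Hspa5, which encodes the chaperone BiP and is the gene most used to read this response, was at 827, 771 and 932 CPM in control and at 802, 547 and 496 CPM in KO. Its groups overlapped through KO 1 (log2 fold change -0.46, 95% interval -0.97 to 0.06, adjusted p = 0.238 by edgeR). Dnajb9, a BiP cochaperone and XBP1 target, was at 41.6, 39.6 and 41.6 CPM in control and at 32.4, 29.98 and 33.1 CPM in KO. Like Herpud1 it was lower in every KO library than in any control, but did not pass (log2 fold change -0.36 with SE 0.10, adjusted p = 0.0926 by edgeR). With DESeq2 it passed (log2 fold change -0.38, adjusted p = 0.0349). Of the 27 genes, 2 had every KO library below every control and 7 had every one above, against 14.5% and 16.4% of all genes. The estimate was above 0 for 20 of the 27 and below 0 for 7. P4hb had the lowest adjusted p of the list and was higher in every KO library than in any control (log2 fold change 0.58, adjusted p = 0.0777 by edgeR). Hsp90b1, Calr, Dnajc3, Pdia4, Pdia6 and Hyou1 had overlapping groups and adjusted p = 0.973, 0.801, 0.551, 0.812, 0.415 and 0.666 by edgeR.

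Among 26 other ERAD gene symbols 0 passed by edgeR (median 0.01), with 5 at an unadjusted p under 0.05 and 2 past DESeq2, against the same shares of all genes. Vimp and Selenos, both in this list, share the gene ID 109815 and were counted separately. Derl1 and Derl2, channel-forming partners of the SEL1L complex, had adjusted p = 0.956 and 0.599 by edgeR. Derl3, their inducible relative, was at 5.96 CPM in control 3, at 0.294 CPM in control 1, at 0 reads in control 2 and at 0.414, 1.29 and 0.767 CPM in KO. Of 16 genes of the PERK, ATF4 and CHOP arm 0 passed by edgeR (median 0.23), with 3 at an unadjusted p under 0.05 and 3 past DESeq2, again against 25.9% and 15.5% of all genes. Atf4 and Ddit3, which encodes CHOP, had adjusted p = 0.896 and 0.762 by edgeR.

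The last 2 lists cover the general secretory route, and 2.61% of all genes tested rose. Every KO library was above every control for 16.4% of all genes and below for 14.5%. An unadjusted p under 0.05 by edgeR was held by 25.9% of all genes. Of 23 translocon, signal peptidase and transport genes 2 rose and 0 fell (median 0.22). Every KO library was above every control for 11 of the 23 and below for 0, and 8 had an unadjusted p under 0.05 by edgeR. Kdelr3, a receptor that returns escaped ER proteins, rose from 17.3 ± 4.88 to 44.7 ± 3.76 CPM, and Spcs3, a signal peptidase subunit, from 122 ± 8.06 to 188 ± 9.77 CPM (SD, n = 3 libraries each, adjusted p = 0.0285 and 0.0401 by edgeR). Of 13 tested collagen folding and export genes (median 0.57), 9 had every KO library above every control and 1 had every one below. An unadjusted p under 0.05 by edgeR was held by 8 of the 13. By adjusted p, 3 rose and 0 fell. These were the lysyl hydroxylases Plod2, from 68.5 ± 13.7 to 159 ± 20.9 CPM, and Plod3, from 58.2 ± 7.37 to 104 ± 18.5 CPM, and the prolyl hydroxylase P3h1, from 26.1 ± 5.09 to 56.7 ± 10.7 CPM (SD, n = 3 libraries each, adjusted p = 0.0268, 0.0489 and 0.0394 by edgeR). Calls in both lists numbered 0 without any single library other than control 3. The fibroblast marker sum, mostly of collagen genes and Postn, was higher in every KO library, and its part in these rises was not tested. No test compared one list with another.

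**Figure D5:**
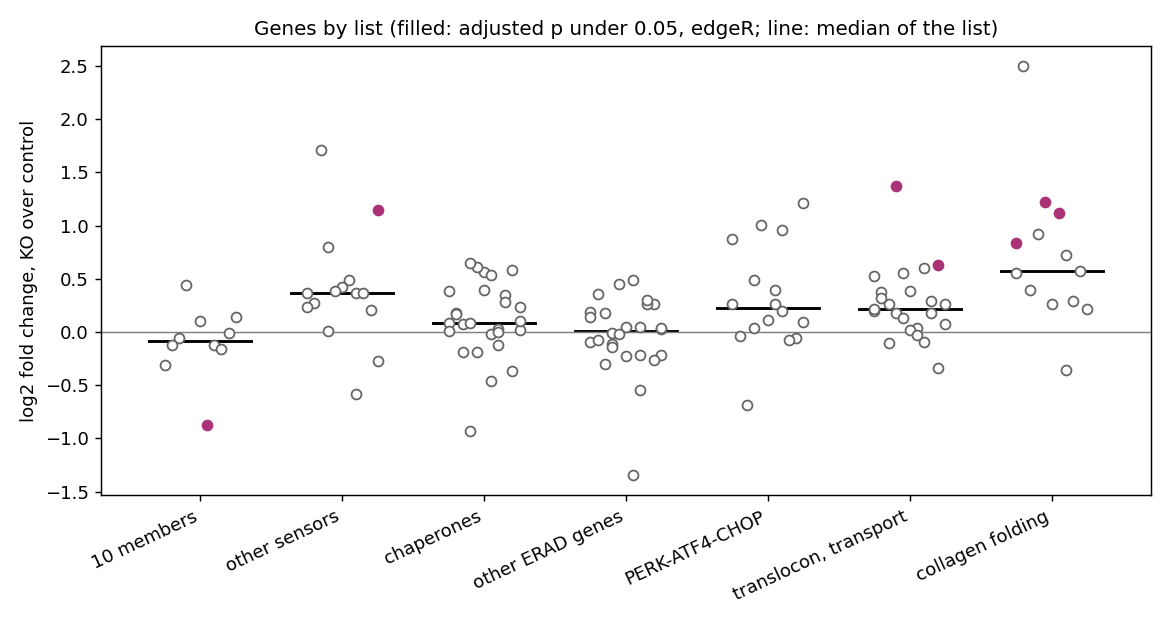
Log2 fold change (KO over control) of every tested gene of the 10 members and of 6 related lists, filled where adjusted p was under 0.05, with the median of each list as a line. Medians run from -0.09 for the members to 0.57 for collagen folding and export.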

How the data were processed

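Total RNA of remote left ventricle was sequenced with a stranded kit, according to the protocols in the labels. The tools HISAT2 and Bowtie2 and the build mm10 appear, with neither version nor role, per the submitters' processing notes. No source used here names the counting program or annotation release, or says whether counting used strand. The authors deposited whole read counts and FPKM values for 36780 RefSeq transcripts, per the file headers, with transcript length as another property. Deposited FPKM values were 0.962 to 0.988 times those recomputed from counts, length and library total. Columns were mapped to the control or knockout sample by their first letters, C or KO.

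Counts were summed per symbol and tested with edgeR 4.0.16 in R 4.3.3 (quasi-likelihood, TMM, filterByExpr, Benjamini-Hochberg over all 14466 genes), libraries of both genotypes in one fit with genotype as the only term. SE is the log2 fold change over the square root of F. Alternatives were other scalings and filters, DESeq2 1.42.0, limma 3.58.1 on log2(FPKM + 1), a block for library number, leaving out each library, and, added after seeing the data, leaving out control 3 and KO 1 together. Transcript shares used exact permutation tests. The members and lists were chosen with earlier results of these data known. Besides members and Nmrk2, named genes were 16 standing members of the lists, list genes past the test and the 5 most alike. Ern2, P4hb, Vimp, Selenos, the cell type markers named singly and the genes of the closing section were chosen after their values were seen. Of the other marker lists, summed CPM ran from 1490 to 2015 for endothelial cells, 1327 to 1811 for smooth muscle and 132 to 826 for erythroid cells. For atrial cells it ran from 151 to 3175 (Bmp10 at 0), and Nppa was the largest part of it in the KO libraries.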

Additional observations from a re-analysis of the deposited data

How the results depend on the processing

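Herpud1 kept its direction in all 14 alternatives, with log2 fold changes from -1.06 to -0.77, and passed in 6 of them. It missed the threshold without a low-count filter (-0.86, adjusted p = 0.0513), with library number as a blocking term (-0.89, adjusted p = 0.175) and without control 3 and KO 1 together (-0.83, adjusted p = 0.0524), so that 0 members fell in these fits, by edgeR. Leaving out 1 library at a time gave 0 to 2 members that fell and 0 to 1 that rose, and 3 to 3628 genes past the test in all. From 535 with all libraries, the total went to 47 when control 1 was left out, to 25 when it was control 2, 3628 for control 3, 88 for KO 1, 47 for KO 2 and 3 for KO 3. It was 2316 with DESeq2, 864 with limma, 6 with the block and 2121 without control 3 and KO 1, where 1 member, Edem1, rose.

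Calls in the lists (sensors, chaperones, ERAD, PERK arm, translocon, collagen folding) were 2, 5, 2, 3, 5 and 7 with DESeq2. They ranged over 0 to 4, 0 to 7, 0 to 3, 0 to 3, 0 to 5 and 0 to 6 with 1 library left out, each highest without control 3. Without control 3 and KO 1 they were 2, 2, 1 and 2 for the first 4. Limma gave 2 for sensors and 5 for collagen folding, a mean of at least 5 CPM gave 5 for collagen folding, and the block gave 0 for sensors, translocon and collagen folding. The library numbers were not treated as pairs: deviations of same-numbered libraries correlated at 0.31, -0.33 and -0.35, and 2 of 6 libraries correlated best with their own number.

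Some estimates changed sign, most of them near 0. That of Derl3, at -1.34 with all libraries, was not near 0. With limma they were 0.0038 for Xbp1, 0.0092 for Syvn1, 0.024 for Manf, 0.11 for Sdf2l1 and 0.089 for Derl1. With library totals, which moved the median of all genes to 0.11, they were 0.030 for Manf, 0.056 for Sdf2l1 and 0.088 for Derl1, so these 3 lay below that shift. With the block Sdf2l1 was at 0.035 and Derl3 at 0.46. Without control 3 and KO 1 the values were 0.19 for Xbp1, 0.29 for Syvn1, 0.013 for Creld2, 0.25 for Sdf2l1, 0.081 for Derl2, 2.77 for Derl3 and -0.15 for Atf4. Hsp90b1 was at -0.0069 with RLE scaling and -0.0021 with DESeq2, and Derl1 at 0.00046 with a mean of at least 5 CPM. With 1 library left out the ranges were -0.35 to 0.20 for Xbp1, -0.018 to 0.32 for Ern1, -0.28 to 0.23 for Syvn1, -0.37 to 0.27 for Creld2, -0.30 to 0.13 for Manf, -0.18 to 0.39 for Sdf2l1, -0.11 to 0.18 for Hsp90b1, -0.016 to 0.22 for Calr, -0.084 to 0.70 for Pdia4, -0.37 to 0.011 for Hyou1, -0.033 to 0.0026 for Derl1, -0.37 to 0.014 for Derl2, -1.92 to 2.46 for Derl3, -0.066 to 0.16 for Atf4, -0.026 to 0.32 for Ddit3 and -6.29 to 0.35 for Nmrk2. The cause was not tested. The order of the members per length was the same with deposited FPKM and with the longest transcript, and on the gene strand alone ERSE was in 1 member's window.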

Other observations

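Several members have paralogs in the same tissue, and these values were looked up after those of the members had been seen. Cdnf, the paralog of Manf, was at 42.3, 38.4 and 23.0 CPM in control and at 19.1, 13.02 and 22.6 CPM in the libraries labelled KO. Every KO library was below every control, though KO 3 and control 3 were close, and the gene did not pass (log2 fold change -0.93 with SE 0.29, adjusted p = 0.107 by edgeR). Herpud2, the paralog of Herpud1, was at 31.2, 44.0 and 37.0 CPM in control and at 47.7, 45.9 and 59.5 CPM in KO, with every KO library above every control (log2 fold change 0.45, 95% interval 0.04 to 0.85, adjusted p = 0.159 by edgeR), while Herpud1 was below. Among all genes tested, 14.5% had every KO library below every control and 16.4% had every one above. Whether Herpud1 and Herpud2 differ in their change was not tested.

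Sdf2, the paralog of Sdf2l1, was at 38.2 ± 7.87 and 38.4 ± 1.85 CPM, and Creld1, the paralog of Creld2, at 33.1 ± 5.30 and 32.7 ± 1.27 CPM (SD, n = 3 libraries each, adjusted p = 0.986 and 0.954 by edgeR). Control 3, the highest library for Sdf2l1 and Creld2, was the lowest for Sdf2, at 29.1 CPM, and lay between the other controls for Creld1, at 31.2 CPM.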
